A study of Mus musculus with 24 samples.

Results

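The change of the diphtheria toxin (DT) effect between 24 and 96 h is, for each gene, the DT against saline difference at 96 h minus the same difference at 24 h, computed on read counts. It compares 16 of the 24 libraries of the study, 4 in each of 4 groups: saline at 24 h, DT at 24 h, saline at 96 h and DT at 96 h. All 24 libraries were fitted together, so those of 48 h share in the estimate of the spread and can move the calls. Of 36528 genes in the count table, 17468 passed a filter on low counts and were tested. The study profiled tumours of the mouse small intestine that carry the genotype AKVPL, after the toxin had been used to remove Lgr5+ cells, and saline served as the control at each time. All groups share the AKVPL genotype, whose letters the labels do not spell out, and a sort that the labels call bulk, with EpCAM, an epithelial surface protein, in the sample names. The labels state no allele for toxin sensitivity, dose, route or age. They also do not say whether the 4 libraries of a group came from separate animals, so p-values measure only the spread between these libraries, which may be technical. In bulk RNA, fewer cells of a type and less RNA per cell cannot be told apart. The 16 libraries held between 11315650 and 27633431 counts. Some libraries stood apart from others of their group. Saline 96 h replicate 1 had a chi-square per degree of freedom of 15.2 to 38.2 against the others, which had 9.95 to 12.9 among themselves, and a second principal component of 11.49 against -9.94 to -28.7. DT 48 h replicate 1 had a chi-square of 22.6 to 33.2 against the others, which had 4.87 to 10.5. DT 48 h replicate 3 was the lowest of its group on the first component, at -2.97 against 18.43 to 30.86. DT 24 h replicate 3 was the highest of its group on that component, at 54.99 against 42.12 to 44.19. Its chi-square was 15.7 to 27.5 against the others, which had 11.4 to 18.1.

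Diphtheria toxin blocks protein synthesis and kills cells that carry its receptor, and mouse cells respond only where a receptor gene has been added. Lgr5 is a receptor for R-spondins, a target gene of Wnt signalling and a marker of intestinal stem cells, and loss of Lgr5+ cells in the intestine is known to be followed by their return from other epithelial cells. Interferon signalling works through transcription factors that bind a short repeat in the promoters of antiviral genes. Genes of mitosis are switched on late in the cell cycle through a CCAAT box and a TTTGAA-like element, and genes of DNA synthesis earlier through E2F sites.

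4 promoters are printed here because nearly all tested genes of the type I interferon and G2/M lists changed their DT effect in 1 direction. Each runs 5′ to 3′ from 250 bases before to 50 bases after the RefSeq start of the gene (build GRCm38.p6, all on the minus strand), and the genes are the 2 with the smallest p of the change among the members of each list that have a promoter in the RefSeq table. Oas3 (chr5:120777610-120777909) and Oas1a (chr5:120907476-120907775) encode enzymes that sense double-stranded RNA. Capitals in these mark GAAANNGAA on either strand, the core of the interferon response element. Each promoter held 2 overlapping matches.
Oas3: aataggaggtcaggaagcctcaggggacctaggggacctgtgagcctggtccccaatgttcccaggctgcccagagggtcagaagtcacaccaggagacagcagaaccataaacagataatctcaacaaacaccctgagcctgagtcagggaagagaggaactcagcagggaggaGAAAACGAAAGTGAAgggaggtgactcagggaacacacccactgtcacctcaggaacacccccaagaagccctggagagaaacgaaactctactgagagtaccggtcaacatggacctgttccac
Oas1a: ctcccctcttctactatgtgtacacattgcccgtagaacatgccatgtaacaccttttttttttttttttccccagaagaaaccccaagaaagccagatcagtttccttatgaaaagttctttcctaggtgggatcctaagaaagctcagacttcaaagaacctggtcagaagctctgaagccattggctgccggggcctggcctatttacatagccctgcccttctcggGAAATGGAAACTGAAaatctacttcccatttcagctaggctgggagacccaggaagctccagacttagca
Ccnb2 (chr9:70421505-70421804) encodes cyclin B2, which drives entry into mitosis, and Bub1 (chr2:127831810-127832109) encodes a kinase of the spindle checkpoint. Capitals in these mark the letters TTTGAA and, elsewhere, those of the CCAAT box, on either strand. The related letters TTTAAA were searched too and are in neither promoter. The Ccnb2 promoter held 2 matches to TTTGAA and 3 to CCAAT, and the Bub1 promoter held 2 to CCAAT, 1 on each strand.
Ccnb2: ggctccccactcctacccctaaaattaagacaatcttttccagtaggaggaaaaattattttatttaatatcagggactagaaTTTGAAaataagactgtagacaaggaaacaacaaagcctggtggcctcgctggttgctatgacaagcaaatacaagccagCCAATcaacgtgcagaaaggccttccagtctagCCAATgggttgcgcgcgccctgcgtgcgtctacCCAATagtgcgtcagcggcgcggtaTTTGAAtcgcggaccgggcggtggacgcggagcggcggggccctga
Bub1: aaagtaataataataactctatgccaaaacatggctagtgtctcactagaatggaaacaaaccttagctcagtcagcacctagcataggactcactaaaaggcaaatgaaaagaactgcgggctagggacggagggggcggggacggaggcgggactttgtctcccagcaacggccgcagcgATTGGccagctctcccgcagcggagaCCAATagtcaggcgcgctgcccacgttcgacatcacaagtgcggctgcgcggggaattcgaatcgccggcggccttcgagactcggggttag

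A match is a description of letters, not of a bound site. RefSeq promoters were matched for 12606 of the tested genes, and 7.08% of these held GAAANNGAA against 12 of the 17 matched members of the type I interferon list (70.6%). TTTGAA stood in 12.5% of all matched promoters and in 12 of 17 of the G2/M list (70.6%), and CCAAT in 38.1% and in 15 of 17 (88.2%). CCAAT was not particular to that list. It stood in 93.8% of matched cholesterol synthesis, 78.6% of circadian clock and 73.7% of S phase promoters. In the type I interferon and ribosome biogenesis lists the share was 41.2% and 26.3%. Among 57 matched genes whose higher level with DT shrank by 96 h but was still called then, 29 held TTTGAA (50.9%). The G2/M list gives 15 of the 69 genes in that class, so these shares are not separate. TTTNNCGC, an E2F-like motif, stood in 7.74% of all and in 9 of 19 promoters of the S phase list (47.4%).

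Lgr5 (Entrez 14160, chr10:115450314-115587780) was lower with DT at both times, and the gap narrowed. At 24 h its level in counts scaled to library size (CPM) was 179, 209, 194 and 217 with saline and 84.1, 84.9, 77.0 and 79.6 with DT. At 96 h it was 170.2, 182, 152 and 181 with saline and 125, 125, 135 and 123 with DT. The groups did not overlap at either time, and the DT libraries stood apart by less at 96 h. The log2 difference was -1.30 ± 0.12 (SE) at 24 h and -0.43 ± 0.12 at 96 h (edgeR, adjusted p = 4.4e-08 and 0.0447), with -0.60 at 48 h. The change of the effect was 0.86 ± 0.17 on the log2 scale (95% interval 0.50 to 1.22, adjusted p = 0.00232 by edgeR's quasi-likelihood test with Benjamini-Hochberg adjustment, used throughout). Within the DT groups Lgr5 rose by 0.64 between the times (adjusted p = 3.5e-04), while the saline groups differed by -0.22 (adjusted p = 0.346). The change passed the test whichever library was left out, but the 96 h difference missed it in 19 of 24 such fits, with an adjusted p of up to 0.152. It kept its call only without DT 24 h replicate 3 or 4 or DT 48 h replicate 1, 3 or 4.

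Over all genes, the DT effect changed between 24 and 96 h in 2079, mostly toward 0. The change was negative in 1366 (7.82% of those tested) and positive in 713 (4.08%), where a gene is called when its adjusted p is under 0.05. Of the changes, 256 of the negative and 72 of the positive were 2-fold or more. The median change over all tested genes was -0.01 on the log2 scale. At 24 h DT had raised 3469 genes (19.9%) and lowered 3296 (18.9%). By 96 h 176 were called higher (1.01%) and 528 lower (3.02%). These comparisons share libraries with the change, so their values are given side by side and not as separate support.

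The number of negative changes was 860, 898 and 888 without saline 24 h replicate 2, 3 or 4, and that of positive changes 1103 and 1097 without DT 48 h replicate 1 or 3. The total of called changes stayed between 1577 and 2933 over the 24 fits that leave out 1 library, with 2027 without saline 96 h replicate 1, 2933 without DT 48 h replicate 1 and 2255 without DT 48 h replicate 3. The 16 libraries fitted alone gave 2280. The 96 h total fell from 704 to 371, 415, 359 and 362 without saline replicate 3, saline replicate 4, DT replicate 2 or DT replicate 4 of that time, and the raised genes alone numbered 69, 81, 63 and 72, or 299 without DT 48 h replicate 3. The 96 h total of both directions was 579, 882 and 828 without saline 96 h replicate 1, DT 48 h replicate 1 or DT 48 h replicate 3. Without DT 24 h replicate 3 there were 529 positive changes and 5961 genes called at 24 h, each the lowest of the 24 fits.

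Each gene with a changed effect was put in a class by the 24 h and 96 h calls. In 1900 genes the effect was reduced and no longer called at 96 h: 1251 had been higher with DT (median log2 difference 0.56 at 24 h, 0.22 at 48 h and 0.05 at 96 h) and 649 lower (-0.51, -0.22 and -0.03). In 119 the effect was reduced and still called, 69 higher (1.17, 0.45 and 0.44) and 50 lower (-1.21, -0.68 and -0.52). It was reversed in 5, appeared late in 24 (called at 96 h and not at 24 h) and had grown in none, by this fit. A further 31 genes had a called change with neither effect called. Growth was called in 1 gene by limma voom, in 1 by a fit of the 16 libraries alone, in 2 without DT 48 h replicate 3 and in 1 without saline 96 h replicate 2. The 119 genes became 46 to 74 without any 1 library of 96 h other than saline replicate 2, and 191 and 202 without DT 48 h replicate 1 or 3.

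A further 484 genes kept their effect, called at both times in the same direction with no call for the change: 75 were higher with DT and 409 lower. A change that misses the threshold does not show an equal effect, so an interval was used as well: in 216 of the 484 (44 higher, 172 lower) the 95% interval of the change lay within 1.5-fold either way. The largest class with an effect, 4257 genes, was called at 24 h alone with no call for the change, and 72 were called at 96 h alone. The kept genes fell from 484 to 285, 313, 269 and 272 without saline 96 h replicate 3, saline 96 h replicate 4, DT 96 h replicate 2 or DT 96 h replicate 4, and the 216 to 97, 111, 101 and 98 without the same libraries and to 141 without saline 24 h replicate 4. The 72 became 25 to 42 without DT 96 h replicate 1 or any of these 4.

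**Figure D1:**
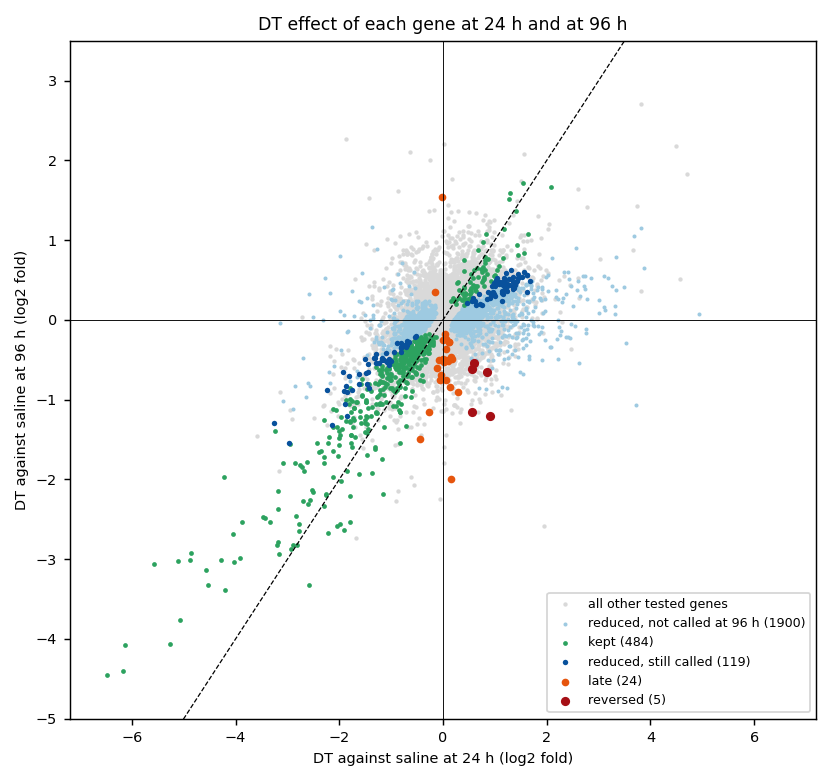
DT against saline at 24 h (horizontal, log2 fold) and at 96 h (vertical, log2 fold), 1 point per tested gene, coloured by class. Reduced genes lie near the horizontal axis, most of the 484 kept genes lie at the lower left on or between the dashed line of equal effects and that axis, and the 5 reversed genes sit at the lower right.

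Fewer of the raised than of the lowered genes were still called at 96 h. Of the 3469 genes higher with DT at 24 h, 144 (4.15%) were called higher at 96 h, and of the 3296 lower ones 459 (13.9%) were called lower. A called change toward 0 was found in 1325 of the raised (38.2%) and 699 of the lowered genes (21.2%). Among genes that differed 2-fold or more at 24 h, 65 of 578 raised (11.2%) and 214 of 487 lowered (43.9%) were still called at 96 h. Genes chosen at a high 24 h value tend to fall back in any repeat, so the same was read in genes chosen at 48 h. The 48 h libraries enter neither difference, but they share in the spread behind the calls. DT raised 844 genes at 48 h (4.83%) and lowered 1135 (6.50%). The raised ones had median log2 differences of 0.57 at 24 h, 0.35 at 48 h and 0.14 at 96 h, with 92 (10.9%) called higher at 96 h. The lowered ones had -0.65, -0.48 and -0.30, with 399 (35.2%) called lower. Whether the share differs between the directions was not tested.

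**Figure D2:**
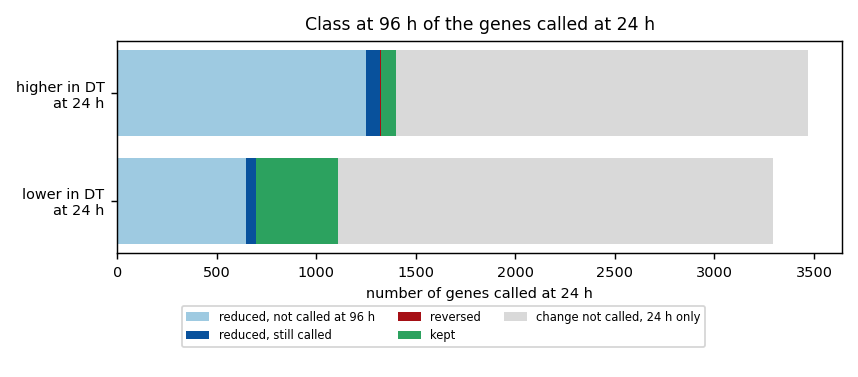
Number of genes called at 24 h (horizontal), split by class at 96 h, for genes higher and genes lower with DT. Kept genes take 409 of the 3296 lower genes and 75 of the 3469 higher ones.

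Calls over time came mostly from the DT groups. Between 24 and 96 h, 2891 genes rose (16.6%) and 3657 fell (20.9%) with DT, against 365 that rose (2.09%) and 198 that fell (1.13%) with saline. Of the 2079 genes with a changed effect, 1933 were called over time in the DT groups only, 45 in the saline groups only, 20 in both and 81 in neither. The saline total of 563 was 165, 133 and 183 without saline 24 h replicate 1, 2 or 4, and 1218, 91, 219 and 275 without saline 96 h replicate 1, 2, 3 or 4.

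More genes changed their DT effect between 24 and 48 h than between 48 and 96 h. The effect differed between 24 and 48 h in 505 genes (2.89%), 97 with a positive and 408 with a negative change, and between 48 and 96 h in 1 gene (0.00572%). That gene was Nr1d1, with a change of -1.0 ± 0.16 (adjusted p = 0.0357), while 18 of the 24 fits that leave out 1 library called no gene. At an unadjusted p under 0.05 there were 1057, and the comparison gave 6 genes with DESeq2 and 9 with limma voom. The 24 to 48 h count was 321 without DT 48 h replicate 3, 865 without DT 48 h replicate 1, and 325, 272, 336 and 323 without saline 24 h replicate 1, 2 or 4 or saline 48 h replicate 4.

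**Figure D3:**
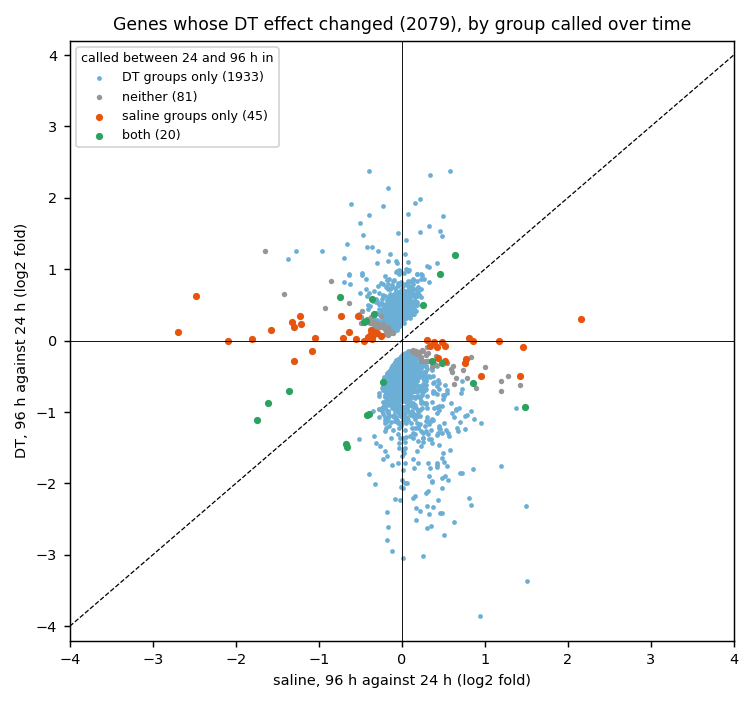
Change between 24 and 96 h in the saline groups (horizontal, log2 fold) and in the DT groups (vertical, log2 fold) for the 2079 genes with a changed effect, coloured by the groups in which the gene was called over time. The 1933 genes called with DT only form a vertical cloud around 0 on the saline axis.

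The type I interferon response was high with DT at 24 h and near the saline level later. Of 24 list members tested, 23 were higher with DT at 24 h and none was lower. At 96 h none was called in either direction, and the change was negative and called in 23. At 96 h, 6 were higher and 3 lower at an unadjusted p under 0.05, DESeq2 called 2 higher and 1 lower, and limma voom 1 and 3. The list's median log2 difference was 1.82 at 24 h, 0.06 at 48 h and 0.16 at 96 h, and the change count stayed at 23 or 24 with any library left out. All 24 fell with time in the DT groups and none was called in the saline groups.

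Oas3 (chr5:120753098-120777684), whose product makes the 2-5A messenger that activates RNase L, had 1.73, 1.65, 2.96 and 2.08 CPM with saline and 21.8, 30.2, 31.8 and 40.0 with DT at 24 h. The 96 h values were 3.56, 1.90, 3.89 and 2.56 with saline and 5.87, 2.75, 4.45 and 5.78 with DT. The groups were far apart at 24 h and overlapped at 96 h, with 3 of 4 DT libraries above all saline ones. The change was -3.23 ± 0.34 (adjusted p = 6.1e-06), from a log2 difference of 3.87 to 0.65 (adjusted p = 0.146), although the 96 h difference passed without DT 96 h replicate 2 (0.85, adjusted p = 0.0426).

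Irf7, the transcription factor that amplifies the interferon response, had 30.5, 22.5, 35.1 and 22.1 CPM with saline and 116, 152, 159 and 236 with DT at 24 h. At 96 h the DT libraries had 35.0, 25.1, 39.8 and 42.2, and the saline libraries 26.9, 24.1, 35.5 and 22.6, so the groups overlapped. Its effect changed by -2.21 ± 0.30 (adjusted p = 1.5e-04). Bst2, which tethers budding viruses to the cell surface, went from 22 ± 0.401 (SD, n = 4) with saline and 137 ± 28.8 with DT at 24 h to 24.2 ± 4.44 and 29.5 ± 6.21 at 96 h. The Bst2 effect changed by -2.34 ± 0.25 (adjusted p = 9.6e-06). For Bst2 the DT and saline libraries were separate at 24 h and overlapped at 48 and 96 h. Oas1a and Oas1g, Ifit3 and Apol9a have close copies in the genome, so their counts are uncertain. Oas1a changed by -2.15 ± 0.24 (adjusted p = 9.6e-06).

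Genes of interferon gamma and antigen presentation followed in part. Of 21 tested, 12 were higher and 2 lower with DT at 24 h, none was called at 96 h (3 higher at an unadjusted p under 0.05, 1 by DESeq2 and 1 by limma voom), and the change was called in 11, all negative. The median difference went from 0.71 at 24 h to 0.11 at 48 h and 0.07 at 96 h. B2m, the shared light chain of class I molecules, had 230.3, 225, 210.4 and 196 CPM with saline and 431, 513, 589 and 577 with DT at 24 h. By 96 h it had 185, 231, 254 and 197 with saline and 282, 208, 261 and 311 with DT, and the groups overlapped. Its effect changed by -1.0 ± 0.19 (adjusted p = 0.00184). Tap1, a subunit of the peptide transporter, changed by -1.48 ± 0.24 (adjusted p = 4.7e-04), and H2-D1, a class I heavy chain, by -0.78 ± 0.15 (adjusted p = 0.00148).

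Cxcl9, a chemokine induced by interferon gamma that draws T cells, had the largest called change among genes with an assigned symbol and a mean of at least 5 CPM in a group, at -4.87 ± 1.03 (adjusted p = 0.00209). It had 0.208, 0.675, 0.141 and 0.0771 CPM with saline and 2.31, 13.0, 8.72 and 9.88 with DT at 24 h, and between 0.393 and 1.62 in all 8 libraries at 96 h. Among genes of NF-kB and chemokine signalling, 5 of 17 had a called change, all negative, with 8 higher and 1 lower at 24 h and 1 lower at 96 h. Relb, an NF-kB subunit, changed by -0.61 ± 0.11 (adjusted p = 6.3e-04).

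Leukocyte markers were read beside these genes. None of the 15 macrophage and monocyte markers was called for DT against saline at 24 or 96 h or for the change (1, 1 and 0 at an unadjusted p under 0.05, and 1 by DESeq2 at 24 h), but 9 fell with time in the saline groups and 12 in the DT groups. Over all tested genes 19.9% were higher and 18.9% lower with DT at 24 h, and 4.08% had a positive and 7.82% a negative change. The summed level of the 15 markers was 376 to 518 CPM with saline and 246 to 627 with DT at 24 h, and 158 to 259.7 and 170 to 208 at 96 h. Ptprc, the pan-leukocyte marker, lay between 1.54 and 12.4 CPM in the 16 libraries, Nkg7 was at 0 in all 24, Cd8a at 0 in 19 and Cd3e at 0 in 10. With a leukocyte score as a covariate the type I interferon list gave 23 negative changes. That score, in log2 CPM, was 2.52 to 3.08 with saline and 2.14 to 3.33 with DT at 24 h. At 96 h it was 1.53 to 2.30 and 1.53 to 1.94, so it differed by time more than by treatment. The part of leukocytes in the interferon genes was not tested.

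**Figure D4:**
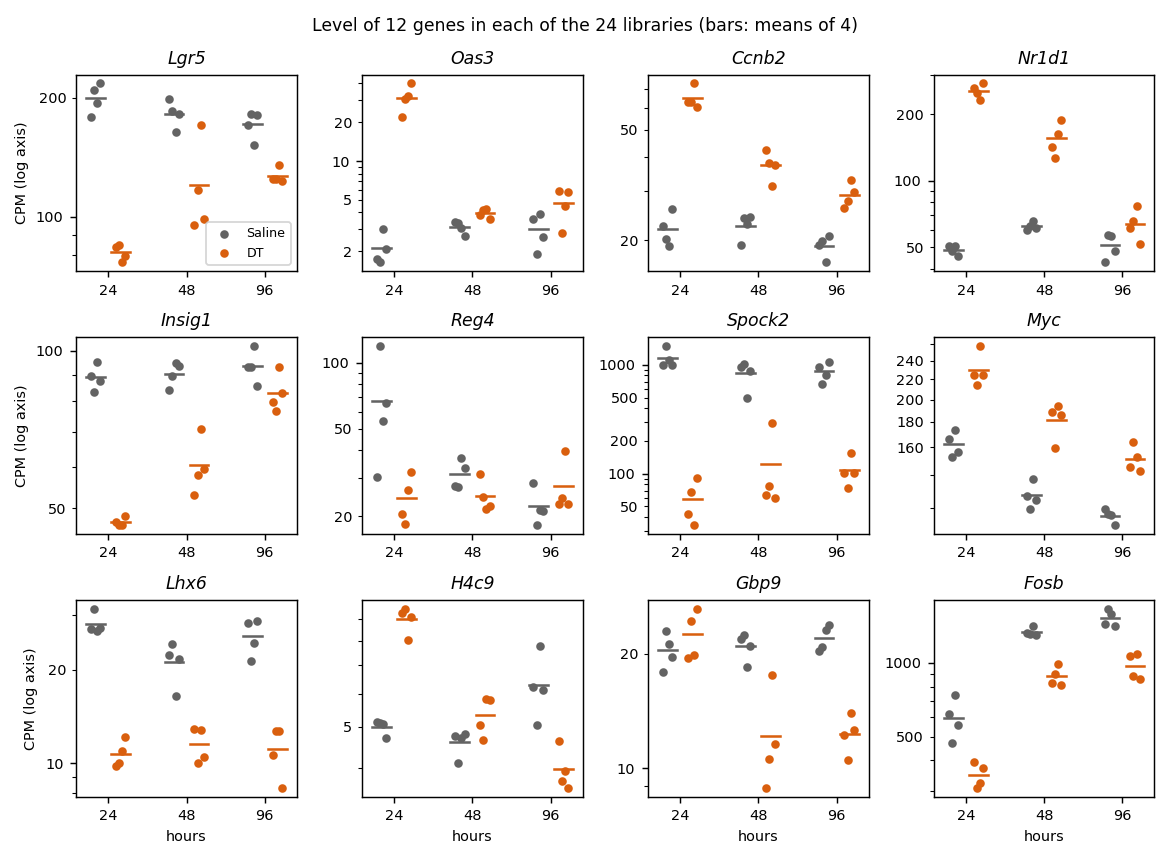
CPM (vertical, log axis) of 12 genes in the 24 libraries at 24, 48 and 96 h, grey for saline and orange for DT, with a bar at the mean of 4. Oas3, Ccnb2, Nr1d1 and Insig1 move toward the saline level, Spock2, Lhx6, Myc and Fosb stay apart from it, and H4c9 crosses it.

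Mitotic genes shrank toward saline without reaching it. All 22 members of the G2/M list were higher with DT at 24 h, 16 were still higher at 96 h, and the change was negative and called in 20. The median difference was 1.28 at 24 h, 0.54 at 48 h and 0.45 at 96 h. Of the 22, 15 were reduced and still called, 5 reduced and no longer called, 1 kept and 1 called at 24 h alone. The change count stayed between 18 and 21 with any library left out.

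Ccnb2 had 22.6, 20.2, 19.0 and 25.9 CPM with saline and 63.0, 63.1, 73.3 and 60.1 with DT at 24 h. At 96 h it had 19.2, 19.8, 16.7 and 20.8 with saline and 26.2, 27.6, 33.0 and 29.9 with DT. The groups stayed apart at all 3 times, and the gap at 96 h was the smaller. The log2 difference went from 1.57 to 0.72 at 48 h and 0.60 at 96 h (adjusted p = 0.00153), and the change was -0.96 ± 0.15 (adjusted p = 3.1e-04). Bub1 changed by the same -0.96 ± 0.15 (adjusted p = 3.3e-04), from 1.36 to 0.40. Kif23, a motor of cytokinesis, changed by -0.84 ± 0.13 (adjusted p = 3.7e-04), from 1.28 to 0.44.

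Genes of DNA synthesis were mostly no longer called at 96 h. Of 24 in the S phase list, 23 were higher and 1 lower at 24 h, 1 was higher and 1 lower at 96 h, and the change was negative and called in 20. At 96 h, 13 were higher at an unadjusted p under 0.05, 4 by DESeq2 and 10 by limma voom. The median went from 0.82 to 0.33 and 0.24. The count of changes was 13 without saline 24 h replicate 3. Rrm2, the regulated subunit of ribonucleotide reductase, had 14.1, 13.6, 14.1 and 16.2 CPM with saline and 41.5, 56.0, 76.4 and 36.5 with DT at 24 h. By 96 h it had 15.1, 18.5, 13.0 and 12.7 with saline and 16.3, 18.4, 15.8 and 20.6 with DT, with overlap. Its change was -1.60 ± 0.25 (adjusted p = 3.6e-04).

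Mcm10, a replication initiation factor outside the lists, was separate at both times: 12.9 to 13.5 CPM with saline and 35.9 to 47.5 with DT at 24 h, then 11.8 to 13.9 and 16 to 17 at 96 h. Its effect changed by -1.26 ± 0.12 (adjusted p = 2.0e-06), from 1.61 to 0.35. The 96 h call (adjusted p = 0.0184) was lost without saline 96 h replicate 2 or 3 or DT 96 h replicate 2, at 0.0505, 0.0609 and 0.0655.

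Genes of ribosome production and of nucleotide supply shrank alongside. All 24 members of the ribosome biogenesis list were higher with DT at 24 h, 4 were at 96 h (14 by limma voom), and the change was negative and called in 15, with medians of 0.60, 0.28 and 0.19 at the 3 times. Nop56, a core protein of box C/D particles, had 77.7, 79.6, 94.9 and 87.6 CPM with saline and 195, 180.1, 203 and 167 with DT at 24 h. Its level at 96 h was 93.6, 93.8, 88.6 and 85.2 with saline and 105, 116, 104 and 101 with DT, which did not overlap. Its change was -0.89 ± 0.09 (adjusted p = 6.1e-06). The remaining difference of 0.24 at 96 h (adjusted p = 0.0437) was lost in 7 of the 24 fits without 1 library, with an adjusted p of up to 0.173.

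In the purine and one-carbon list, 15 of 17 were higher at 24 h, 3 at 96 h and 10 had a negative change, with medians of 0.49, 0.17 and 0.09. Mthfd2, the mitochondrial folate enzyme, had 14.7, 11.1, 12.7 and 12.9 CPM with saline and 22.5, 24.1, 30.3 and 18.2 with DT at 24 h, and 12.7 to 17.3 and 13.8 to 14.8 at 96 h. The groups were separate at 24 h, while at 96 h all DT libraries lay inside the saline range. Its change was -1.0 ± 0.18 (adjusted p = 9.1e-04). Psat1, of serine synthesis, changed by -0.87 ± 0.14 (adjusted p = 3.1e-04). In the ATF4 list, which shares Mthfd2, 8 of 20 had a negative change, with 11 higher and 4 lower at 24 h. That count was 4 or 5 without any 1 of 8 libraries: saline 24 h replicates 1, 2 and 4, DT 24 h replicate 3, saline 48 h replicate 4, saline 96 h replicate 3 and DT 96 h replicates 2 and 3.

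**Figure D5:**
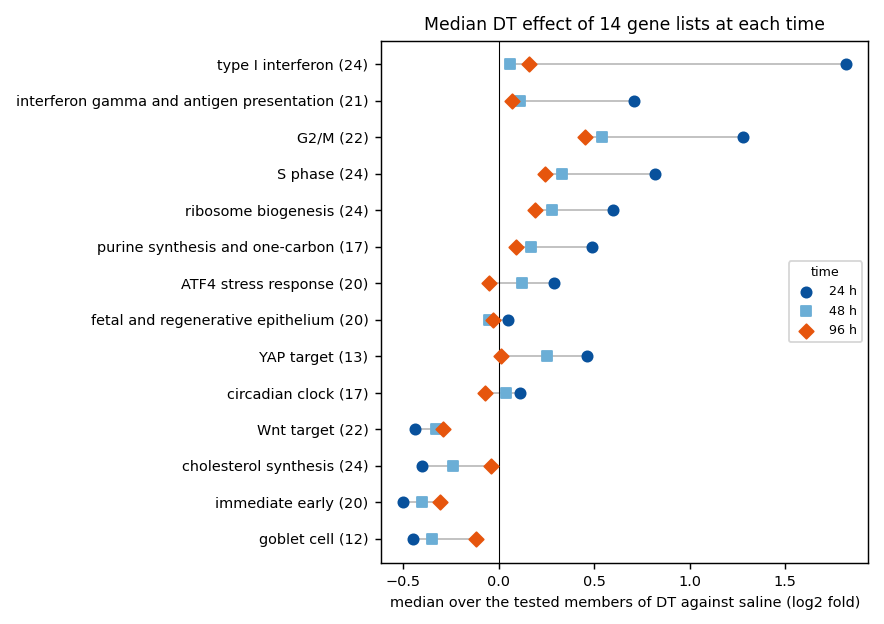
Median log2 DT against saline difference (horizontal) of 14 gene lists (vertical, tested members in brackets) at 24, 48 and 96 h. The type I interferon median falls from 1.82 to 0.06 by 48 h, and the G2/M median stays at 0.45 at 96 h. The immediate early median stays below 0 at each time.

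Myc, a transcription factor known to drive ribosome and nucleotide genes, was higher with DT at both times. At 24 h it had 166, 153, 173 and 156 CPM with saline and 224, 214, 257 and 225 with DT. The 96 h values were 119.5, 117, 116 and 111 with saline and 146, 164, 153 and 143 with DT. The groups were apart at both times. The difference was 0.51 ± 0.07 at 24 h and 0.38 ± 0.07 at 96 h (adjusted p = 3.4e-06 and 0.00153), and the change of -0.12 ± 0.10 (95% interval -0.32 to 0.08) was not called. Its level fell in the saline groups by 0.48 (adjusted p = 3.8e-04) and in the DT groups by 0.60 (adjusted p = 7.5e-07). Myc was singled out after its values were seen.

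Some Wnt target genes came closer to saline by 96 h and some stayed low. Of 22 tested, Lgr5 included, 14 were lower and 1 higher with DT at 24 h, and 7 were lower and 1 higher at 96 h. The member that was higher at both times was Myc. The change was positive and called in 5 and negative in none by edgeR, DESeq2 or limma voom, and the median went from -0.44 to -0.33 and -0.29. Notum, a secreted enzyme that inactivates Wnt proteins, had 769, 882, 819.7 and 755 CPM with saline and 302, 293, 299 and 428 with DT at 24 h. By 96 h it had 799.7, 537, 720 and 688 with saline and 434, 488, 459.6 and 511 with DT. The groups were apart at both times, by a small margin at 96 h. The change was 0.75 ± 0.17 (adjusted p = 0.00527), from -1.29 to -0.54 (adjusted p = 0.00964 at 96 h).

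Nkd1, a feedback inhibitor of the pathway, changed alike, by 0.63 ± 0.14 (adjusted p = 0.00593), with 1168 ± 65.4 (SD, n = 4) against 533 ± 76.5 CPM at 24 h and 1001 ± 134 against 707 ± 43.5 at 96 h. Its groups did not overlap at any time. Rnf43, a ligase that removes Wnt receptors, went from a difference of -0.45 to -0.06 with a change of 0.39 ± 0.10 (adjusted p = 0.0138). Of the 20 other Lgr5+ stem cell markers tested, 8 were lower and 1 higher at 24 h, 1 was lower at 96 h and 4 had a positive change. These counts are not separate from those of the Wnt targets, since 8 of the genes, Rnf43 and Tnfrsf19 included, are in both lists. Among 8 reserve stem cell genes, Mex3a was the 1 with a called change, beside 4.08% of all tested genes with a positive change. Mex3a, an RNA-binding protein of slow-cycling stem cells, changed by 0.68 ± 0.13 (adjusted p = 0.00133), from -0.53 to 0.15, and Tnfrsf19, a Wnt-regulated receptor, by 0.52 ± 0.14 (adjusted p = 0.0177).

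Most sterol synthesis genes were lower with DT at 24 h, and in 12 of 24 the effect was reduced by 96 h. Of the 24 genes, 19 were lower and 1 higher with DT at 24 h, 1 was higher and none lower at 96 h (2 lower at an unadjusted p under 0.05, none by DESeq2 or limma voom), and the change was positive and called in 12. The median went from -0.40 to -0.24 and -0.04, and the count of changes lay between 8 and 15 with a library left out. Insig1, the sterol-regulated anchor of SREBP processing, had 89.6, 83.5, 95.2 and 87.4 CPM with saline and 47.0, 46.5, 46.5 and 48.3 with DT at 24 h. At 96 h it had 93.2, 92.9, 102 and 85.5 with saline and 79.8, 76.7, 93.1 and 83.1 with DT. The DT libraries were tightly together and far below at 24 h, and overlapped the saline ones at 96 h. The change was 0.75 ± 0.11 (adjusted p = 1.4e-04). Hmgcs1, the first enzyme of the pathway after acetoacetyl-CoA, changed by 0.71 ± 0.12 (adjusted p = 7.5e-04) and Cyp51, the lanosterol demethylase, by 0.63 ± 0.09 (adjusted p = 1.2e-04).

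Among clock genes, 7 of 17 were higher and 4 lower at 24 h, 2 were lower at 96 h, and 6 had a negative change. Nr1d1 (chr11:98767932-98775377), the clock repressor REV-ERB alpha, had the smallest p of the change among the genes named here. It had 50.7, 48.1, 50.5 and 45.7 CPM with saline and 261, 249, 232 and 275 with DT at 24 h. By 96 h it had 42.9, 57.0, 56.1 and 48.3 with saline and 60.9, 65.8, 77.0 and 52.0 with DT. The wide gap at 24 h had closed to an overlap. The difference went from 2.38 to 1.33 at 48 h and 0.33 at 96 h, a change of -2.06 ± 0.16 (adjusted p = 1.2e-07), and the 96 h difference passed the test only without DT 96 h replicate 4 (0.43, adjusted p = 0.0452). Per1 changed by -0.80 ± 0.15 (adjusted p = 0.0014), Cry1 by -0.54 ± 0.12 (adjusted p = 0.0052) and Dbp by -0.64 ± 0.15 (adjusted p = 0.00867). The labels give 24, 48 or 96 h, not the hour of the day.

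Genes of a fetal or regenerative epithelium and of the Hippo pathway effector YAP gave fewer calls. Of 20 fetal-type genes, 7 were higher and 5 lower at 24 h, 1 was lower at 96 h and 5 had a negative change. That count was 3 without saline 24 h replicate 3 or 4, DT 24 h replicate 3, saline 48 h replicate 4, saline 96 h replicate 3 or DT 96 h replicate 3. Ly6a, the surface protein Sca-1 that marks regenerating epithelium, had 120.1, 108, 122 and 127 CPM with saline and 354, 386, 537 and 312 with DT at 24 h. It had 98.5, 173, 149 and 136 with saline and 219, 150.5, 148 and 187 with DT at 96 h, when the groups overlapped. The change was -1.39 ± 0.24 (adjusted p = 8.8e-04). Ly6a is also known as an interferon-induced gene.

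Of 13 YAP targets, 6 were higher and 2 lower at 24 h, 1 was higher at 96 h and 4 had a negative change, with medians of 0.46, 0.25 and 0.01. F3, tissue factor, had 55.1, 52.3, 60.8 and 60.2 CPM with saline and 154, 169.9, 147 and 110.1 with DT at 24 h, then 53.7, 82.6, 62.7 and 60.8 against 73.0, 52.3, 75.7 and 59.5 at 96 h. All 4 DT libraries were higher than all saline ones at 24 h, and the groups overlapped at 96 h. Its change was -1.34 ± 0.22 (adjusted p = 5.2e-04), and that of Ankrd1, a stretch-induced nuclear protein, was -1.22 ± 0.26 (adjusted p = 0.00348). Krt5, a basal-cell keratin that simple epithelium lacks, had 6.11 to 8.71 CPM with saline and 22.8 to 58.3 with DT at 24 h, and 7.83 to 12.2 and 7.53 to 15.9 at 96 h. Its change was -2.33 ± 0.54 (adjusted p = 0.00728). Dll1, a Notch ligand, was the 1 of 9 Notch genes with a changed effect, beside 7.82% of all tested genes with a negative change. It had 6.52 to 8.18 CPM with saline and 13.2 to 15.6 with DT at 24 h, and 8.72 to 11.1 and 8.73 to 12.5 at 96 h. Its change was -0.98 ± 0.17 (adjusted p = 6.8e-04).

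Some goblet cell genes fell with time in the saline groups and some in the DT groups. Of 12 goblet cell genes tested, 5 were lower and 2 higher at 24 h, and 1 was lower at 96 h. A positive change was called in 5 and a negative one in 1. With time, 4 fell in saline, while 4 fell and 1 rose in DT. Fcgbp, a goblet cell marker, lay at 271 to 394 CPM with saline and 62.8 to 133 with DT at 24 h. At 96 h it lay at 222 to 388 and 138 to 231, so its saline ranges overlapped and its DT range was higher. Muc2 was lower with DT at 24 h too, at 2.64 to 14.4 with saline and 0.739 to 1.69 with DT. Spdef, another goblet cell marker, went the other way, with 23.1 to 26.3 CPM with saline and 34.3 to 39.8 with DT at 24 h. At 96 h Spdef lay at 16.6 to 22.3 and 25.4 to 28.5. Clca1 overlapped at 24 h, at 0.975 to 2.05 and 1.03 to 1.74. The 5 positive changes became 2 without saline 24 h replicate 2 or DT 96 h replicate 3, and 3 without DT 24 h replicate 1, 2 or 3 or saline 96 h replicate 2. Reg4, a secreted lectin of goblet and endocrine cells that stands in the antimicrobial list, had 30.2, 119, 54.1 and 65.3 CPM with saline and 20.5, 18.5, 26.4 and 31.9 with DT at 24 h. Its level at 96 h was 28.4, 18.3, 21.3 and 21.1 with saline and 22.8, 24.3, 39.5 and 22.8 with DT. The groups overlapped at both times, and the saline libraries of 24 h were the high ones. The change of 1.73 ± 0.42 (adjusted p = 0.0101) stood beside a fall of saline of -1.58 (adjusted p = 0.0105) and a DT difference over time of 0.15 (adjusted p = 0.716). Tff3, a mucus-stabilising trefoil peptide, behaved alike: its change was 2.09 ± 0.52 (adjusted p = 0.0111), with -2.09 over time in saline (adjusted p = 0.00445) and 0.00 in DT. Its level was low, at 1.32 to 12.2 CPM in the 16 libraries.

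Of 11 antimicrobial genes, 7 were lower and 1 higher at 24 h, 2 were lower at 96 h, and 3 had a positive change. Reg3b, a lectin that binds bacteria, had 66.1, 70.6, 103 and 231 CPM with saline and 15, 25, 21 and 10.4 with DT at 24 h, and 37.8 to 79.6 and 30.4 to 56.0 at 96 h. The change of 2.22 ± 0.60 (adjusted p = 0.02) missed the threshold without saline 24 h replicate 4, the library with 231 (1.70, adjusted p = 0.0513). Reg3b also has a near-identical neighbour family, so its reads may be shared. Of 11 Paneth cell genes 3 had a positive change. Over all tested genes 4.08% had a positive and 7.82% a negative change, and 19.9% were higher and 18.9% lower with DT at 24 h. None of 15 enteroendocrine, 17 tuft cell and 11 enterocyte genes had a called change (1, 1 and 0 at an unadjusted p under 0.05, none by DESeq2, 1 tuft cell gene by limma voom), while 7 tuft cell genes were higher and 2 lower with DT at 24 h and none at 96 h by edgeR (8 higher at an unadjusted p under 0.05, 2 by DESeq2 and 4 by limma voom). Of the enterocyte markers, Alpi, Apoa1 and Fabp1 were below 1 CPM in all 16 libraries and were not tested, nor were Apoa4 and Treh, and Sis lay at 0.659 to 8.39 CPM. The enterocyte list summed to 600 to 725 CPM with saline and 613 to 820.3 with DT at 24 h, and to 581 to 689 and 651 to 919 at 96 h.

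Nearly all immediate early genes were lower with DT at 24 h, and some still were at 96 h. Of 20, 19 were lower with DT at 24 h and 9 at 96 h. The change was called in 3, all positive, beside 4.08% of all tested genes, and 9 were kept. The median difference went from -0.50 to -0.40 and -0.31, while 8 rose with time in saline and 17 in DT. The count of 3 became 1 without any 1 of 7 libraries: saline 24 h replicate 3, DT 24 h replicates 2 and 3, saline 96 h replicates 2 and 4 and DT 96 h replicates 1 and 3. Fosb, an AP-1 subunit singled out after its values were seen, had 619.6, 471, 739 and 557 CPM with saline and 392, 309, 322 and 373 with DT at 24 h. The 96 h values were 1439, 1661, 1579 and 1418 with saline and 1064, 880, 1092 and 863 with DT. DT libraries were below saline ones at each time although the levels of both had risen. The saline rise was 1.35 (adjusted p = 1.5e-07) and the DT rise 1.48 (adjusted p = 5.4e-09), and the change of the effect was 0.13 ± 0.16 (95% interval -0.19 to 0.45, adjusted p = 0.648).

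Egr3, an early growth response factor, did change. It had 122, 74.1, 118 and 106 CPM with saline and 57.2, 38.8, 38.0 and 78.4 with DT at 24 h, and 169, 141, 159 and 124 against 175, 127, 243 and 163 at 96 h. The groups overlapped at both times. The change was 1.24 ± 0.30 (adjusted p = 0.00921), from -0.99 to 0.25. In the heat shock list 3 of 14 had a positive change, beside 4.08% of all tested genes. With time, 7 of the 14 fell in saline and 5 in DT. Those that fell in saline include Dnajb1, whose change was 0.74 ± 0.16 (adjusted p = 0.00335) beside a saline fall of -0.71 (adjusted p = 0.0012).

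Of 19 genes of hypoxia and glycolysis, 12 were lower at 24 h, 5 at 96 h, 2 had a positive and 1 a negative change, and the median was -0.33, -0.22 and -0.33. Over all tested genes 18.9% were lower at 24 h and 3.02% at 96 h, and 4.08% had a positive and 7.82% a negative change. Of the 19, 4 rose with time in saline and 11 in DT. Aldoc, an aldolase of glycolysis that stands in none of the lists, was reduced and still called. It had 126 to 151 CPM with saline and 31.6 to 46.0 with DT at 24 h, and 117 to 136 and 72.1 to 90.1 at 96 h. The groups were apart at both times. Its change was 1.27 ± 0.19 (adjusted p = 2.9e-04), from -1.93 to -0.66. Cdh13, a cadherin held by a lipid anchor, went from 393 to 469 against 140.4 to 168 CPM at 24 h to 367 to 409 against 262 to 293 at 96 h, again without overlap. Its change was 1.01 ± 0.12 (adjusted p = 2.7e-05).

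The genes with the largest kept effects were low with DT at both times by a wide margin, but with wide intervals. Pnliprp2, a lipase known from pancreas, had 816, 927, 617 and 576 CPM with saline and 4.88, 11.7, 5.69 and 17.4 with DT at 24 h. At 96 h it had 577, 354, 718 and 617 with saline and 19.2, 8.94, 67.2 and 15.1 with DT. The DT libraries were lower at each time without overlap, and DT 96 h replicate 3 was the highest of them. The difference was -6.18 at 24 h and -4.41 at 96 h (adjusted p = 2.1e-05 and 0.00368). The change of 1.77 ± 1.09 was not called, and its 95% interval ran from -0.51 to 4.04.

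Spock2, a matrix proteoglycan, had 1000.5, 1479, 1096 and 1005 CPM with saline and 42.8, 67.7, 33.9 and 90.4 with DT at 24 h. By 96 h it had 962, 661, 798 and 1054 with saline and 101, 74.3, 156 and 101 with DT. The DT values were the lower ones throughout and those of 96 h lay mostly above those of 24 h. The change of 1.27 ± 0.59 (adjusted p = 0.178) was called only without DT 48 h replicate 3 (1.31, adjusted p = 0.0379). Ms4a2, known as the beta chain of the mast cell IgE receptor, was also kept low, with a mean of 24.1 against 0.24 CPM at 24 h and 20.6 against 1.12 at 96 h, and a difference of -6.49 and -4.46 (adjusted p = 4.2e-06 and 9.5e-04). The other defining mast cell markers were low: Cpa3 lay at 0 to 1.65, Mcpt1 at 0.257 to 4.79 and Mcpt2 at 0.685 to 3.48 CPM in the 16 libraries, and Fcer1a was at 0 in 15 of 24. None of the 12 tested mast cell genes had a called change (1 at an unadjusted p under 0.05, none by DESeq2 or limma voom). With DT, 2 of the 12 were lower and 1 higher at 24 h, 3 were lower at 96 h, and 2, Ms4a2 included, were kept. Over all tested genes 18.9% were lower and 19.9% higher at 24 h, and 3.02% were lower at 96 h. The median difference of the mast cell genes was -0.06 at 24 h and -0.46 at 96 h. Their summed level was 126 to 176 CPM with saline and 97.2 to 194 with DT at 24 h, and 124 to 190.3 and 128 to 173 at 96 h.

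Genes whose interval lay within 1.5-fold are described by a rule added after values were seen. Lhx6, a homeobox transcription factor, had 27.1, 31.3, 26.7 and 27.3 CPM with saline and 9.77, 9.98, 10.9 and 12.1 with DT at 24 h. Its level at 96 h was 28.2, 21.3, 24.3 and 28.6 with saline and 10.6, 12.7, 12.7 and 8.34 with DT. The groups did not overlap at either time. The differences were -1.39 and -1.21 (adjusted p = 3.8e-08 and 2.5e-05) and the change 0.18 ± 0.19 (95% interval -0.21 to 0.57). Slc7a11, the cystine carrier, had 113, 92.6, 114 and 96.2 CPM with saline and 179, 169, 166 and 176 with DT at 24 h, and 130.2, 114, 109.7 and 113 against 179.6, 208, 143 and 197 at 96 h. DT was the higher group at both times with no overlap. Its change was -0.10 ± 0.20 (95% interval -0.50 to 0.31), from 0.73 to 0.64 (adjusted p = 0.00943 at 96 h). Adcy8, an adenylyl cyclase higher with DT, went from 9.6 to 12 against 21.1 to 31.1 CPM at 24 h to 10.4 to 13.2 against 15.4 to 25.2 at 96 h. Its interval of -0.98 to 0.23 reached beyond the bound, and its 96 h call (adjusted p = 0.035) was lost in 6 of the 24 fits without 1 library, at up to 0.119.

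The 5 reversed genes were all higher with DT at 24 h and lower at 96 h. Their number was 2 or 3 without saline 24 h replicate 3 or 4, DT 24 h replicate 2, saline 96 h replicate 1, 3 or 4 or DT 96 h replicate 1 or 2, and 8 without DT 48 h replicate 1. H4c9, a histone H4 gene (chr13:22040960-22041362), had 5.14, 5.10, 5.08 and 4.70 CPM with saline and 9.34, 9.52, 8.06 and 9.14 with DT at 24 h. The 96 h values were 6.22, 5.05, 7.78 and 6.11 with saline and 4.62, 3.73, 3.94 and 3.59 with DT. The groups were apart both times, in opposite order. The difference went from 0.85 to -0.66 (adjusted p = 8.1e-06 and 0.00256) and the change was -1.50 ± 0.17 (adjusted p = 1.3e-05). Its calls at both times held with any library left out.

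Gbp6, an interferon-induced GTPase, had 2.78, 2.85, 2.40 and 2.47 CPM with saline and 2.48, 4.60, 3.70 and 4.50 with DT at 24 h. It had 3.85, 2.71, 3.30 and 4.28 with saline and 1.5, 1.52, 2.14 and 1.28 with DT at 96 h. Saline and DT overlapped at 24 h and were separate at 96 h. The change was -1.73 ± 0.28 (adjusted p = 4.1e-04), from 0.56 to -1.16. The 24 h call was lost without saline 24 h replicate 3 or 4 or DT 24 h replicate 2 or 4 (adjusted p = 0.0779, 0.0685, 0.0877 and 0.0708).

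Phf11d, a PHD finger protein of a duplicated family, changed by -1.14 ± 0.21 (adjusted p = 0.00129), from 0.60 to -0.54, and its 96 h call was lost in 18 of 24 (up to 0.2). Gm20627, a predicted gene at 0.54 to 2.91 CPM, changed by -2.11 ± 0.47 (adjusted p = 0.00439), from 0.90 to -1.21, and its 96 h call was lost in 8 of 24 and its 24 h call in 5. For Phf11d, Gm20627 and, at 24 h, Gbp6 a reversal therefore rests on calls near the threshold. The calls of H4c9 did not depend on any 1 library.

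The 24 late genes were mostly lower with DT at 96 h: 22 were lower and 2, Clcn2 and Havcr2, were higher. H1f3 (chr13:23555032-23555807), a linker histone in the same chromosome 13 histone cluster as H4c9, had 4.44 to 6.30 CPM with saline and 5.41 to 7.63 with DT at 24 h, with overlap. At 96 h it had 6.22, 6.37, 8.11 and 7.52 with saline and 4.29, 2.85, 4.62 and 3.47 with DT, without overlap. The change was -1.18 ± 0.23 (adjusted p = 0.00144), from 0.29 to -0.90. H1f2 changed by -0.48 ± 0.11 (adjusted p = 0.00513), and H2ac6 was late and lower too. Most histone mRNAs of dividing cells lack a polyA tail and the genes are near-identical copies, so their counts in polyA libraries are uncertain.

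Gbp9 (chr5:105076464-105110357), a GTPase gene near Gbp6 (chr5:105270702-105295871), had 17.9, 23, 21.2 and 19.6 CPM with saline and 19.5, 24.4, 19.8 and 26.2 with DT at 24 h. By 96 h it had 20.3, 20.8, 23.1 and 23.8 with saline and 12.2, 10.5, 14.0 and 12.6 with DT. Only at 96 h were the groups apart. The change was -0.99 ± 0.21 (adjusted p = 0.00313), with -0.84 at 96 h. Gbp4 was late and lower as well, whereas Gbp3, another member of the family on chromosome 3, was raised at 24 h (1.98) and changed by -1.44 ± 0.22 (adjusted p = 2.7e-04) to 0.54 (adjusted p = 0.0512). GTPases of this family have similar sequences and their reads may be shared.

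Other late genes were Stard13, a GTPase activator, which changed by -0.66 ± 0.16 (adjusted p = 0.0086) from -0.04 to -0.69, and Fancd2, of DNA crosslink repair, which changed by -0.65 ± 0.16 (adjusted p = 0.0102) from 0.17 to -0.49. Clcn2, a chloride channel, had 66.9 to 86.6 CPM with saline and 56.0 to 79.0 with DT at 24 h, and 72.1 to 79.5 and 93.5 to 98.7 at 96 h. The groups overlapped at 24 h and were separate at 96 h. Its change was 0.50 ± 0.14 (adjusted p = 0.021), while its 96 h call (adjusted p = 0.0451) was lost in 12 of 24 fits without 1 library, with an adjusted p of up to 0.116. The late class as a whole fell from 24 to 13, 10, 13, 11 and 13 without saline 24 h replicate 1, saline 96 h replicate 3 or 4, or DT 96 h replicate 2 or 4.

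None of the fibroblast, endothelial, neutrophil, T and NK cell or B and plasma cell genes tested had a called change, but some moved with time. At an unadjusted p under 0.05 the change numbered 1 of 14, 3 of 11 (1 positive and 2 negative), 0 of 5, 1 of 2 and 0 of 1, and DESeq2 called 1 endothelial gene. Over all tested genes 4.08% had a called positive and 7.82% a called negative change. The epithelial markers Epcam and Cdh1 lay at 1239.7 to 1645 and 1197 to 1541 CPM in the 16 libraries. Epcam was lower with DT at 24 h without overlap, at 1507 to 1645 with saline and 1239.7 to 1446 with DT. Krt18 went the other way, at 2034 to 2346 and 2584 to 3227. Of 12 epithelial identity genes, 4 were higher and 2 lower at 24 h. At 96 h none was called by edgeR, and 1 was higher by limma voom. In 1 of 12 epithelial identity genes, Krt18, a negative change was called, beside 7.82% of all tested genes. Of 11 endothelial genes, 10 rose in saline (median 1.57) and 8 in DT (0.83), with none called for the change, and their summed level was 343 to 459 CPM with saline and 397 to 489 with DT at 24 h and 517 to 1048 and 628 to 939 at 96 h. Of 14 fibroblast genes, 2 rose in saline and 1 in DT. Their summed level was 4429 to 5209 and 3552 to 8521 CPM at 24 h and 3546 to 12986 and 6867 to 12508 at 96 h. Col1a1 and Pecam1 were present in all 16 libraries, at 967 to 3783 and 17.9 to 125 CPM. The part of these cells in the results above was not tested.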

How the data were processed

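PolyA RNA of 24 libraries (saline or DT at 24, 48 and 96 h, 4 each) was sequenced. The deposited tables give, per the file headers, the count of reads aligned uniquely to each gene model and an RPKM value adjusted by a size factor. GSNAP and GRCm38 are named in the submitters' processing notes. Versions, strand and annotation were not stated in the labels or headers, so reads of overlapping or antisense genes cannot be told apart. The deposited RPKM served only to recover the authors' size factors.

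Counts were fitted with edgeR 4.0.16 (R 4.3.3): TMM scaling, filterByExpr by the 6 groups, robust quasi-likelihood fit of all 24 libraries with 1 mean per group, 18 residual degrees of freedom, two-sided tests and Benjamini-Hochberg adjustment at 0.05. All adjusted p-values in the text are from this fit unless another tool is named. CPM use the same scaling, differences are log2, and ± after a difference is its SE. Intervals are 95% and cover the spread between libraries. The fit was also run on simulated counts with known changes set in DT at 24 h alone. That setting is simpler than these data, so it does not check the calls given here. Libraries of a group differed by more than sampling noise, with a chi-square per degree of freedom of at least 4.24. Gene names and positions came from RefSeq (GRCm38.p6), which matched 31049 of 36528 IDs (85.0%), and the unmatched IDs held 1.29 to 1.52% of counts.

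Genes were named by rule: Lgr5, the 12 largest called changes each way with a mean of at least 5 CPM in a group, the 5 with the smallest p per class and direction, the 8 largest kept effects each way, and up to 4 per list. Part of these are printed, and some results are not reported here. The members and the 40 lists were chosen with earlier results of these data known. The 24 to 48 h and 48 to 96 h comparisons, the naming of kept genes by interval, and the mention of Myc, Fosb and Relb came after values were seen. Alternatives were DESeq2 1.42.0, limma 3.58.1 voom with quality weights, other scalings and filters, a block for the replicate number, a covariate of leukocyte genes, the 16 libraries alone and each library left out.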

Additional observations from a re-analysis of the deposited data

Results flagged for a closer look

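The DT effect differed between 24 and 96 h by the test of the difference in 2079 genes. Lgr5 was one of them, with a log2 change of 0.86. Among genes whose effect also changed sign with a call at both times, the log2 change was -1.73 for Gbp6, -2.11 for Gm20627, -1.50 for H4c9 and -1.14 for Phf11d.

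Single libraries stood far from the other 3 of their group in 7 of 160 groups checked (40 genes in 4 groups), where chance gives about 5%. Notum was at 428 CPM in DT 24 h replicate 4, with 293 to 302 in the others. Cxcl9 was at 0.393 in DT 96 h replicate 2, below 0.942 to 1.03. DT 96 h replicate 3 was high for Mthfd2 (14.8 CPM against 13.8 to 13.9), Reg4 (39.5 against 22.8 to 24.3) and Dll1 (12.5 against 8.73 to 9.33). In saline at 24 h, H4c9 was low in replicate 4 (4.70 against 5.08 to 5.14) and Lhx6 was high in replicate 2 (31.3 against 26.7 to 27.3).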

How the results depend on the processing

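Under the alternatives other than leaving out a library, each fit of a named gene and contrast was set beside the reported call. The call was unchanged in 3645 of these fits, gained in 69 and lost in 120. With 1 library left out these numbers were 6760, 96 and 248. No called value changed sign, but a value without a call that changed sign counts as unchanged.

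DESeq2 gave 307 genes higher at 96 h, 983 over time in saline, 772 between 24 and 48 h, 6 between 48 and 96 h, 9 reversed, 203 reduced and still called, 57 with a change only and 115 called at 96 h only. Limma voom gave 1280 positive changes, 1561 genes at 96 h (560 higher, 1001 lower), 3975 at 48 h, 1167 in saline, 923 between 24 and 48 h, 9 between 48 and 96 h, 24 reversed, 318 reduced and still called, 1 grown, 74 late, 82 with a change only, 866 kept and 278 at 96 h only. At an adjusted p under 0.1 there were 3194 changes (1247 positive), 1101 genes at 96 h (332 higher), 1084 in saline, 838 between 24 and 48 h, 15 reversed, 270 reduced and still called, 52 late, 71 with a change only and 113 at 96 h only. Tested against a fold of 1.2 there were 508 changes (115 positive, 393 negative), 2998 genes at 24 h (1581 and 1417), 196 at 96 h (8 and 188), 379 at 48 h, 119 in saline, 2243 in DT, 138 between 24 and 48 h, 0 between 48 and 96 h, 1 reversed, 4 reduced and still called, 487 reduced and not called, 5 late, 11 with a change only, 169 kept, 2337 at 24 h only and 17 at 96 h only. With the leukocyte score there were 1012 genes in saline and 4187 in DT. Without a filter there were 401 positive changes, 321 genes in saline, 3 reversed and 78 reduced and still called. The 16 libraries alone gave 1 grown gene. The split of positive and negative changes was 765 and 1285, 800 and 1304 or 766 and 1266 under the other scalings.

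The Lgr5 difference at 96 h missed the threshold with the fold threshold, the leukocyte score and the filter at 1 CPM (-0.43 each), with median-of-ratios, no filter and the authors' factors (-0.42 each), with upper quartile scaling (-0.41) and with the replicate block (-0.44). With 1 library left out it lay between -0.47 and -0.40. The median change of the fetal list, -0.17 in the fit reported, lay between -0.25 and 0.04, and was positive only without saline 96 h replicate 2.

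Replicate numbers did not pair the libraries: over 60 same-numbered pairs the correlation of deviations ran from -0.369 to 0.365, 16 exceeded 0.1, and 7 of 24 libraries correlated best with their own number. With the replicate block there were 1850 changes (636 positive, 1214 negative), 0 between 48 and 96 h and 3 reversed.

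Over the fits that leave out 1 library, the changes numbered 1577 to 2933 (positive 529 to 1103, negative 860 to 1830), the 24 h genes 5961 to 7420, the 96 h genes 359 to 882 (higher 63 to 299, lower 290 to 636), the 48 h genes 1154 to 2741, those in saline 91 to 1218, those between 24 and 48 h 272 to 865 and those between 48 and 96 h 0 to 2. Reversed genes numbered 2 to 8, reduced and still called 46 to 202, grown 0 to 2, late 10 to 35, change only 17 to 63, kept 269 to 550, kept within the bound 97 to 284 and 96 h only 25 to 104. The cause of these shifts was not tested.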
